A study of Drosophila melanogaster with 3 samples.

Results

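The genes described here encode the translation initiation factors, the translation elongation factors and the aminoacyl-tRNA synthetases of Drosophila melanogaster, read for binding of the transcription factor Ewg at their promoters. They were chosen by name alone, from the protein-coding genes of the Ensembl annotation of dm6. A symbol beginning with eIF or eEF was taken, as was a 3-letter amino acid code followed by RS, with or without the suffix -m for the mitochondrial enzyme, and GluProRS. This gave 85 of 13945 genes in 4 classes, namely 44 initiation factors, 8 elongation factors, 18 cytosolic synthetases and 15 mitochondrial synthetases. Ewg (erect wing) was mapped by chromatin immunoprecipitation and sequencing in whole embryos of 0 to 14 hours, males and females pooled. The embryos came from 1 transgenic line that stably carries ewg joined at its C-terminal end to eGFP, and the antibody was raised against GFP. All samples share this genotype and stage and form 1 group of 3 biological replicates, without a treated, untagged or wild-type group to set them against. Signal in whole embryos mixes all cell types, so binding in fewer cells and weaker binding in each cell cannot be told apart, and the tagged copy stands in for the native protein.

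Initiation factors bring the initiator tRNA and the small ribosomal subunit to the cap and start codon of an mRNA, and elongation factors carry aminoacyl-tRNAs to the ribosome and move it along. Aminoacyl-tRNA synthetases join each amino acid to its tRNA, and the enzymes that work in mitochondria are imported from the cytosol, for many amino acids from a separate nuclear gene. Ewg is a DNA-binding protein known for roles in the nervous system and flight muscle of the fly, and its vertebrate homologue NRF-1 is known as a regulator of nuclear genes for mitochondrial function. A gene is called bound below when a summit of the authors' optimal peak set lay within 500 bp of any of its annotated transcript starts.

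The promoter DNA under the peaks is shown first, for the most strongly bound gene of each class whose sequence is given here and for genes whose peak holds a short core-promoter motif. Each stretch lies within 100 bases of the peak summit, without annotated exons of protein-coding genes, and is read 5′ to 3′ on the strand of the named gene, with dm6 coordinates. Capitals mark matches to motifs sought on both strands. These were TATCGATA (the DRE, the DNA replication-related element), GAGAGAG (the GAGA element), CACGTG (an E-box) and GTCACACT (part of the M1BP site). The first set holds the most strongly bound gene of each class among those printed. The initiation factor with the highest signal, eIF6, is not printed. eIF4G2, a scaffold protein of initiation, stands for the initiation factors, and eEF1gamma, a subunit of the exchange complex of elongation factor 1, for the elongation factors. IleRS and ArgRS-m stand for the cytosolic and the mitochondrial synthetases. Only the eEF1gamma stretch holds a marked motif, a DRE.
eIF4G2, chr3R:23819258-23819458, minus strand: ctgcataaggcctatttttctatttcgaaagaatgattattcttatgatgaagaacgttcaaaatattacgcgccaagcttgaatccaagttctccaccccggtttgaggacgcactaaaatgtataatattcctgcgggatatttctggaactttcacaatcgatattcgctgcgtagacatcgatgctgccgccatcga
eEF1gamma, chr3R:29220040-29220171, plus strand: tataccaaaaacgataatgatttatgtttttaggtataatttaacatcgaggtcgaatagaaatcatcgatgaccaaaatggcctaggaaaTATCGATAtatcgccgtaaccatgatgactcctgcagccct
IleRS, chr3L:22288402-22288602, plus strand: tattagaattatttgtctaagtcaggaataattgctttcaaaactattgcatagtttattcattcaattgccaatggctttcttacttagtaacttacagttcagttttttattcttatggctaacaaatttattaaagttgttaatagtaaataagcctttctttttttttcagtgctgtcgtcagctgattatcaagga
ArgRS-m, chr3R:7886956-7887044, plus strand: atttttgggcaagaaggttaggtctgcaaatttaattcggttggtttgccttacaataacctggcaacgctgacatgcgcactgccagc
The second set shows further initiation factors with a DRE. eIF2alpha holds an M1BP match as well as the DRE.
eIF1, chr3L:3222961-3223128, plus strand: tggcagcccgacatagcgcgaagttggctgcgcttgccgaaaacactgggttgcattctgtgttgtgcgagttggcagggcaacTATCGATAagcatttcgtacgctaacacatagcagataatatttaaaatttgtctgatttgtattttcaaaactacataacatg
eIF2alpha, chrX:16446994-16447117, minus strand: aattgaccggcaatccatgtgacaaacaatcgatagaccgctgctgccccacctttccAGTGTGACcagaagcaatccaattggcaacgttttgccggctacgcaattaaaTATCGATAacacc
eIF3a, chr3R:4433896-4433964, minus strand: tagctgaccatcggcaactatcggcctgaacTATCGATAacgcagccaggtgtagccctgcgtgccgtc
The last set holds the E-box matches, in eEF2 and in LeuRS-m.
eEF2, chr2L:21682165-21682251, minus strand: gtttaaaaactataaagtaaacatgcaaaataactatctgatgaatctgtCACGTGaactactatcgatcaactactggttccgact
LeuRS-m, chr3L:4825688-4825852, plus strand: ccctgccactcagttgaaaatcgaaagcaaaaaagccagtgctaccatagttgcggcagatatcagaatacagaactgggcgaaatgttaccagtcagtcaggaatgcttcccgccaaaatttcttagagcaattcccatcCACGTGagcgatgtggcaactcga

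The optimal set held 6793 peaks, with a pooled signal from 142 to 4999 and a median of 270 in the authors' units. Their permissive lists held 30000 regions for the pooled replicates and 29999 to 30000 for each replicate on the chromosomes used. Of the optimal peaks, 5852 had a summit within 100 bp in all 3 replicate lists. Each replicate's values were divided by its median over those 5852 peaks, and the result is called relative signal, so that 1 is a typical peak. The lists hold no read counts, so depth is unknown and no limits that need it are given.

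Of the 85 genes, 35 were bound, or 41.2%, beside 26.4% of all protein-coding genes. The bound genes were 17 of 44 initiation factors (38.6%), 5 of 8 elongation factors (62.5%), 9 of 18 cytosolic synthetases (50%) and 4 of 15 mitochondrial synthetases (26.7%). The share among mitochondrial synthetases was thus at the level of all genes, and those of the other classes stood above it. The optimal set was called from all replicates together, so each replicate was also read alone, as the 6793 strongest regions of its own list. Replicate 1 then placed 37.6% of the 85 genes among the bound, beside 25.9% of all genes. Replicate 2 gave 38.8%, beside 27.3%, and replicate 3 gave 31.8%, beside 24.5%. The difference to all genes was 11.7, 11.5 and 7.25 percentage points, or 10.2 ± 2.53 (SD, n = 3). It had the same sign in 3 of 3 replicates, with p = 0.25 in an exact two-sided sign-flip permutation test, the smallest p that 3 replicates allow. When a peak also had to lie among the strongest regions of both remaining replicates, 23 genes were bound without replicate 1, 25 without replicate 2 and 28 without replicate 3. The share of all genes was then 19.6%, 20.1% and 20.5%. Bound initiation factors then numbered 11, 11 and 13, and bound cytosolic synthetases 5, 7 and 6.

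**Figure D1:**
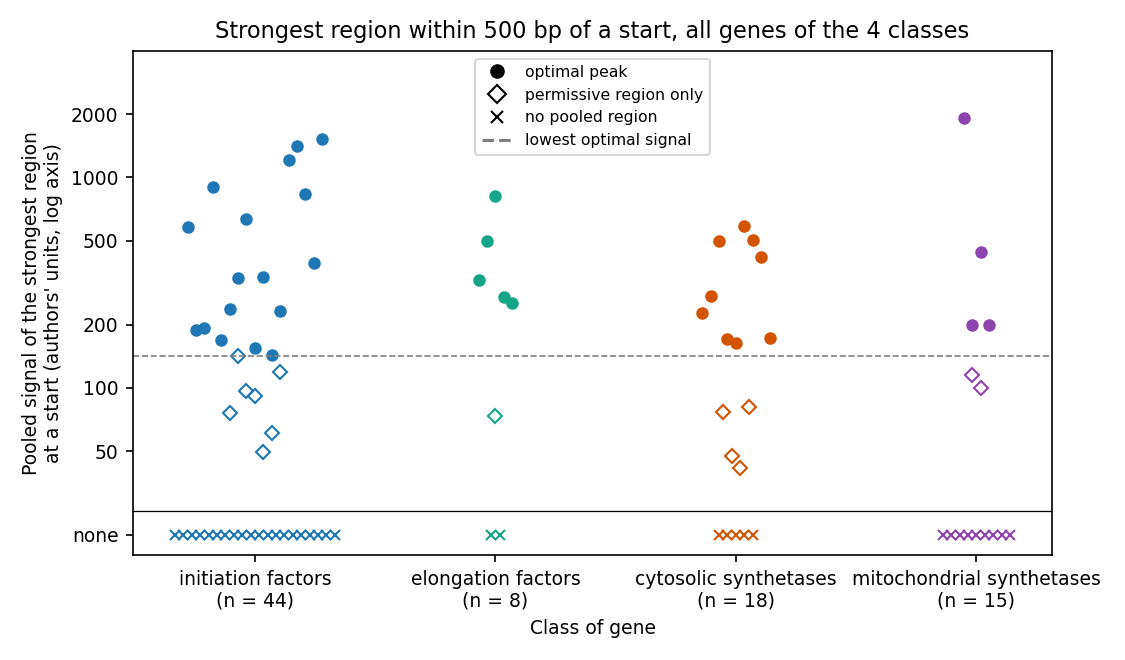
Pooled signal, in the authors' units on a log axis, of the strongest region within 500 bp of a start for each of the 85 genes, by class. Filled points are optimal peaks, open diamonds are regions of the pooled permissive list alone, crosses are genes with neither, and the dashed line at 142 is the lowest signal of the optimal set.

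Signal at the bound genes ranged from a relative signal of 0.472 at eIF2D to 6.41 at ArgRS-m, and 19 of the 35 had a mean above 1. The median over bound genes, averaged over replicates, was 1.23 ± 0.224 (SD, n = 3), beside 1.16 ± 0.0213 for all bound genes of the genome. The difference between these medians was smaller than the spread between replicates. Only 1 mitochondrial synthetase and 3 initiation factors had a mean above 4. Their ranks by pooled signal among the 6793 optimal peaks were 77 for ArgRS-m, 139 for eIF6, 182 for eIF4G2 and 276 for eIF4EHP.

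**Figure D2:**
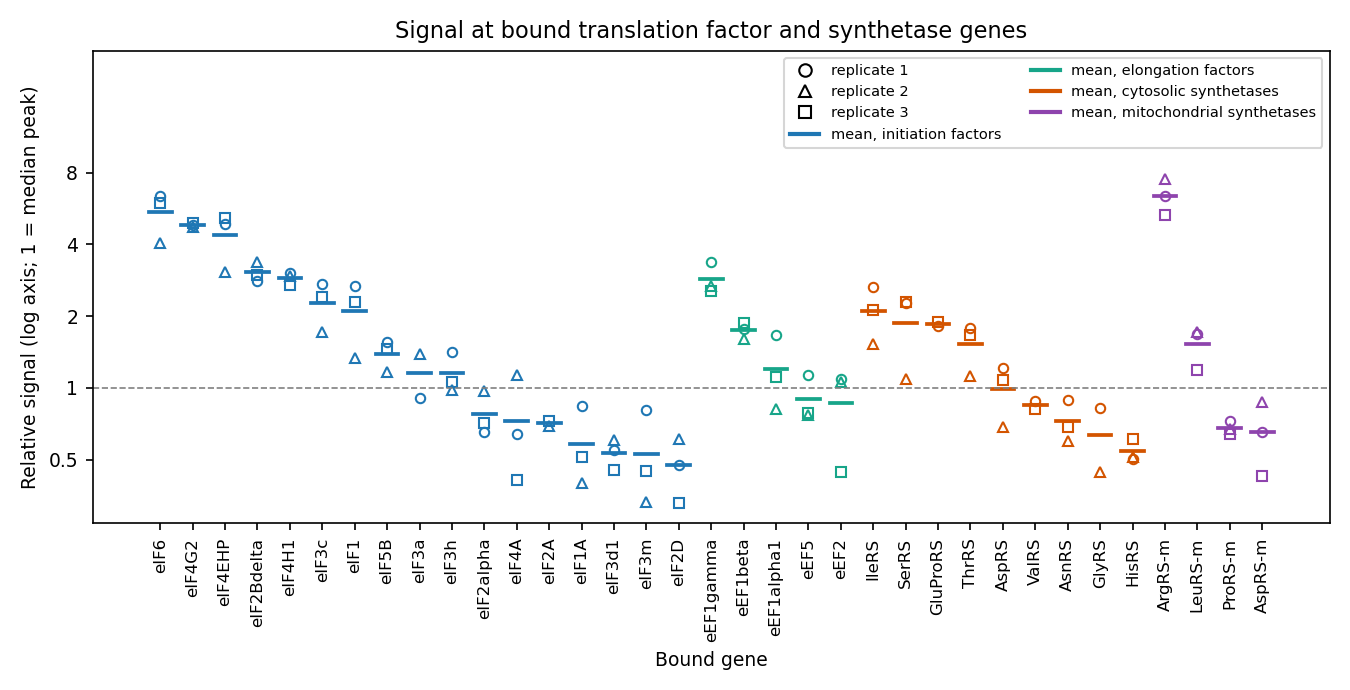
Relative signal, on a log axis, of the strongest peak at each of the 35 bound genes, with 1 symbol per replicate and a bar at the mean, ordered by class and mean. ArgRS-m at 6.41 and eIF6, eIF4G2 and eIF4EHP at 4.36 to 5.47 stand above the other genes, which lie at 3.05 and below.

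The initiation factors of the cap-binding group include the scaffold eIF4G, the RNA helicase eIF4A with its cofactors eIF4B and eIF4H, and the cap-binding eIF4E proteins. Of the 13 genes in this group, 4 were bound (30.8%), near the 26.4% of all genes. eIF4G2 (FBgn0260634, 3R) had relative signals of 4.82, 4.73 and 4.93 in replicates 1, 2 and 3, with a mean of 4.83 ± 0.0988 (SD, n = 3). Its 3 replicates lay closer together than those of the other strongly bound genes. The summit at position 23819358 was 121 bp upstream of an eIF4G2 start and, by the same distance, of a start of CG33111. A second summit under the same interval, 327 bp upstream, had 2.07 ± 0.559. eIF4EHP (FBgn0053100, 3R), a cap-binding protein that represses translation of particular mRNAs in the embryo, had 4.88, 3.05 and 5.16, with a mean of 4.36 ± 1.14. Replicate 2 was the low one there. The summit lay 247 bp upstream of eIF4EHP and 129 bp upstream of the start of CG18428, which was nearer. eIF4H1 (FBgn0262734, X) had 3.04, 2.96 and 2.69, with a mean of 2.90 ± 0.180, from a summit 112 bp upstream that lay 251 bp upstream of CG34015. eIF4A (FBgn0001942, 2L), the helicase itself, was bound at a lower level of 0.726 ± 0.368.

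Within the cap-binding group, paralogs differed in whether they were called bound. eIF4EHP was bound, while eIF4E1, eIF4E3, eIF4E4, eIF4E5, eIF4E6 and eIF4E7 had no optimal summit at a start. With 26.4% of all genes bound, most genes are unbound, and so few paralogs cannot be set apart from that background. eIF4G1 was unbound and eIF4G2 bound, eIF4H2 unbound and eIF4H1 bound, and eIF4B was unbound. These are counts of calls, and the difference between paralogs was not tested. eIF4E1 did reach the strongest regions in replicate 2, at a relative signal of 0.615, but had 0.370 and 0.172 in replicates 1 and 3.

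eIF2 delivers the initiator tRNA, and eIF2B recharges it with GTP. Of the 3 subunits of eIF2, eIF2alpha (FBgn0261609, X), whose phosphorylation is the known switch of the integrated stress response, was bound at 0.779 ± 0.172. eIF2beta and eIF2gamma were unbound. Of the 5 eIF2B subunits 1 was bound (20%, beside 26.4% of all genes). This was eIF2Bdelta (FBgn0034858, 2R), a regulatory subunit, with 2.81, 3.36 and 2.98 and a mean of 3.05 ± 0.280. Its 3 replicates were alike. The summit was 57 bp upstream of eIF2Bdelta and 1 bp upstream of roh on the other side. eIF2A and eIF2D, linked to delivery of tRNA outside the eIF2 route, were bound at low levels, with 0.709 ± 0.0281 for eIF2A in the 2 replicates where it was measured and 0.472 ± 0.142 for eIF2D.

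eIF1 and eIF1A, which act with the small subunit in start codon selection, were both bound. eIF1 (FBgn0035423, 3L) had a mean of 2.10 ± 0.696 from a summit 313 bp upstream. That summit was only 68 bp upstream of RpL28, a ribosomal protein gene. eIF1A had 0.582 ± 0.226, at a summit shared with Vps39. Among the factors of late initiation, eIF6 and eIF5B were bound and eIF5 was not. eIF6 (FBgn0034915, 2R), which keeps the large ribosomal subunit from joining the small one too early, had the highest mean of any initiation factor, at 6.37, 4.06 and 5.97 with a mean of 5.47 ± 1.23. Replicate 2 was lowest, as at eIF4EHP. Its summit lay 104 bp upstream, and no other protein-coding gene had a start within 500 bp of it. eIF5B, a GTPase of subunit joining, had 1.39 ± 0.201.

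eIF3 is the largest initiation factor, a scaffold of many subunits on the small ribosomal subunit. Of its 16 genes, 5 were bound (31.2%), near the 26.4% of all genes. eIF3c had 2.28 ± 0.507, eIF3h 1.15 ± 0.233 and eIF3a 1.15 ± 0.335, the last in the 2 replicates where it was measured. eIF3d1 had 0.534 ± 0.0772 and eIF3m 0.528 ± 0.247. eIF3m was thus close to the limit of the optimal set, at rank 6682 of 6793. Of paralog pairs, eIF3d1 was bound and eIF3d2 was not, while eIF3f1, eIF3f2, eIF3g1 and eIF3g2 were all unbound.

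Among the elongation factors the most strongly bound was eEF1gamma (FBgn0029176, 3R), with 3.39, 2.67 and 2.54 and a mean of 2.87 ± 0.459, at a summit 32 bp upstream. eEF1beta (FBgn0028737, 2R), the nucleotide exchange subunit, had 1.77, 1.60 and 1.88, with a mean of 1.75 ± 0.143. That summit lay 422 bp upstream of eEF1beta and 86 bp upstream of Psi, and a second one 222 bp upstream of eEF1beta had 0.959 ± 0.244. eEF1alpha1 (FBgn0284245, 2R), which carries aminoacyl-tRNAs to the ribosome, had 3 optimal peaks at its 4 annotated starts. The strongest had 1.67, 0.811 and 1.11, with a mean of 1.20 ± 0.434, and the others 0.421 ± 0.124 and 0.707 ± 0.112. Its paralog eEF1alpha2 was unbound. eEF5 (FBgn0285952, 2R), the fly counterpart of eIF5A, had 1.13, 0.769 and 0.786, with a mean of 0.895 ± 0.204. eEF2 (FBgn0000559, 2L), the translocation GTPase, had a mean of 0.864 ± 0.363 and was lowest in replicate 3. eEF1delta, a further exchange subunit, and eEFSec, named for selenocysteine, were unbound.

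The median relative signal of bound cytosolic synthetases was 1.09 ± 0.361 (SD, n = 3). It was 1.30 ± 0.164 for initiation and 1.28 ± 0.338 for elongation factors. In replicate 3 the cytosolic median was the highest of these, at 1.38 against 1.26 and 1.11. No bound cytosolic synthetase had a mean above that of IleRS. IleRS (FBgn0027086, 3L) had 2.65, 1.53 and 2.13, with a mean of 2.11 ± 0.559. SerRS (FBgn0031497, 2L) had 2.26, 1.09 and 2.29, with a mean of 1.88 ± 0.685. ThrRS (FBgn0027081, 2L) had 1.79, 1.12 and 1.67, with a mean of 1.53 ± 0.362. In these 3 genes, and in AspRS below, replicate 2 gave the lowest value. AspRS (FBgn0002069, 2R) had 1.21, 0.683 and 1.08, with a mean of 0.989 ± 0.273. GluProRS (FBgn0005674, 3R), a single protein that serves both glutamate and proline, had 1.81 and 1.89 in replicates 1 and 3 and no summit within 100 bp in replicate 2. At its second summit, 302 bp upstream, replicate 2 was instead the highest, at 1.60 against 0.808 and 0.246. The remaining bound genes were weaker, with 0.848 ± 0.0497 at ValRS and 0.632 ± 0.267 at GlyRS, each in 2 replicates, 0.724 ± 0.147 at AsnRS and 0.542 ± 0.0597 at HisRS.

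ArgRS-m (FBgn0037526, 3R), the mitochondrial arginyl-tRNA synthetase, had the highest signal of all 85 genes, with 6.36, 7.56 and 5.30 and a mean of 6.41 ± 1.13. Its lowest replicate lay above the mean of every gene but eIF6, whose 5.47 it did not reach. The summit at position 7887056 lay 11 bp downstream of the start, in the 5′ untranslated region, and 323 bp upstream of CG17816. LeuRS-m (FBgn0027085, 3L) had 1.69, 1.72 and 1.19, with a mean of 1.53 ± 0.299, between its own start and that of Dhc64C, a dynein heavy chain gene. ProRS-m (FBgn0027082, 3L) had 0.727, 0.670 and 0.642, with a mean of 0.679 ± 0.0433. AspRS-m (FBgn0051739, 2L) had 0.653, 0.869 and 0.428, with a mean of 0.650 ± 0.220. The last pair lay below the median peak in every replicate.

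For 14 amino acids both a cytosolic and a mitochondrial gene could be compared. Both genes were bound for 2 of them, aspartate and proline, the latter through GluProRS. The cytosolic gene alone was bound for 5, namely asparagine, glutamate (again GluProRS), isoleucine, serine and valine. The mitochondrial gene alone was bound for arginine and leucine, and neither was bound for alanine, cysteine, methionine, tryptophan and tyrosine. Over the whole classes 50% of cytosolic and 26.7% of mitochondrial synthetases were bound, beside 26.4% of all genes. Whether the 2 genes of an amino acid were bound together more or less often than these shares give was not tested. Of the 5 amino acids with a cytosolic gene and no mitochondrial gene under the symbol rule, glycine, histidine and threonine had a bound gene and glutamine and lysine did not. The symbol does not tell whether a gene without -m also supplies the mitochondrial enzyme. The contrast of cytosolic and mitochondrial synthetases is therefore one of gene names and not strictly of compartments.

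Contrasts between classes were made within each replicate. Among its strongest regions, replicate 1 bound 44.4% of cytosolic and 26.7% of mitochondrial synthetases, replicate 2 bound 33.3% and 26.7%, and replicate 3 bound 44.4% and 20%. The cytosolic share was the higher in 3 of 3 replicates, by 17.8, 6.67 and 24.4 percentage points and by 16.3 ± 8.98 on average (exact two-sided sign-flip permutation test, p = 0.25). Factors and synthetases showed no constant order. The share of factors was 38.5%, 44.2% and 30.8%, and that of synthetases 36.4%, 30.3% and 33.3%. The mean difference of 4.49 ± 8.50 percentage points was smaller than its spread (exact sign-flip permutation test, p = 0.750) and was −0.233 without replicate 2. Initiation factors were at 34.1%, 40.9% and 27.3%, which is 15, 18 and 12 of 44 genes. Elongation factors were at 62.5%, 62.5% and 50%, which is 5, 5 and 4 of 8 genes. The median relative signal of bound factors minus that of bound synthetases was 0.351, 0.281 and −0.0243, so that replicate 3 went the other way. The mean of 0.202 ± 0.199 was about as large as its spread (exact sign-flip permutation test, p = 0.5). Between cytosolic and mitochondrial synthetases the difference in median was −0.0499 ± 0.539 (exact sign-flip permutation test, p = 1.00). Genes of a class are not replicates, and 3 replicates cannot give a p below 0.25.

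**Figure D3:**
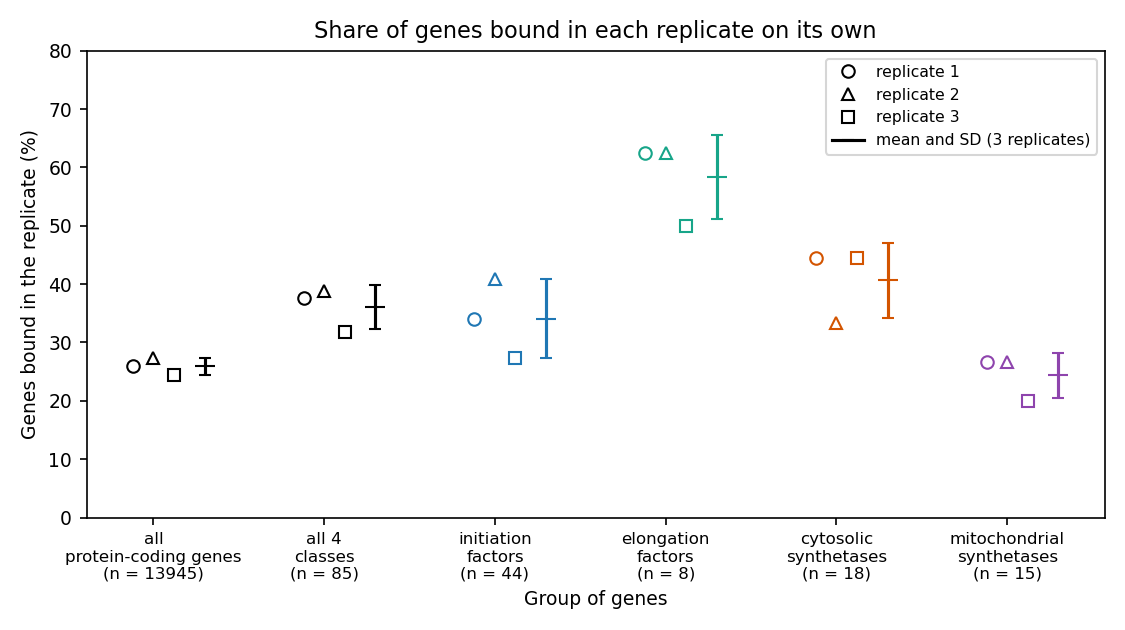
Percentage of genes bound in each replicate on its own, for all protein-coding genes, all 85 genes together and each class, each replicate as a symbol beside the mean ± SD of the 3. Elongation factors lie at 50% to 62.5% and mitochondrial synthetases at 20% to 26.7%, beside 24.5% to 27.3% of all genes.

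At the level of single peaks, replicates 1 and 3 were the most alike. Across the 36 peaks of these genes that were measured in all replicates, Pearson's r of log2 relative signal was 0.94 between replicates 1 and 3. Replicate 2 correlated with replicate 1 at 0.85 and with replicate 3 at 0.80. Over all 5852 such peaks the values, in that order, were 0.87, 0.75 and 0.74. All lists were called against a shared control alignment, and peaks of 1 list are not independent. The median deviation from the mean of the replicates was 0.17 on the log2 scale in replicate 1, −0.08 in replicate 2 and −0.09 in replicate 3. Over all peaks it was 0.02, −0.02 and 0.01, so replicate 1 was higher at the translation genes than over the set. Among the strongest peaks of the 35 bound genes, 22 (62.9%) were present among the strongest regions of all 3 replicates, beside 68.4% of the strongest peaks of all bound genes.

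Summits lay close upstream of the starts. The summit was upstream of the nearest start of the gene for 31 of 35 genes (88.6%, beside 85.6% of all bound genes), at a median distance of 74 bp against 125 bp over all bound genes. The downstream ones were SerRS at 10 bp, ArgRS-m at 11 bp, eEF2 at 13 bp and eIF3h at 285 bp. A second eIF3h summit lay 20 bp downstream of a start, with a pooled signal of 335 against 337. Its relative signal was 1.02 ± 0.282, beside 1.15 ± 0.233 for the strongest. At the other end, ValRS was just inside the 500 bp limit, with a summit 469 bp upstream. eIF3b, whose nearest optimal summit lay at 659 bp, was the first gene outside it.

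**Figure D4:**
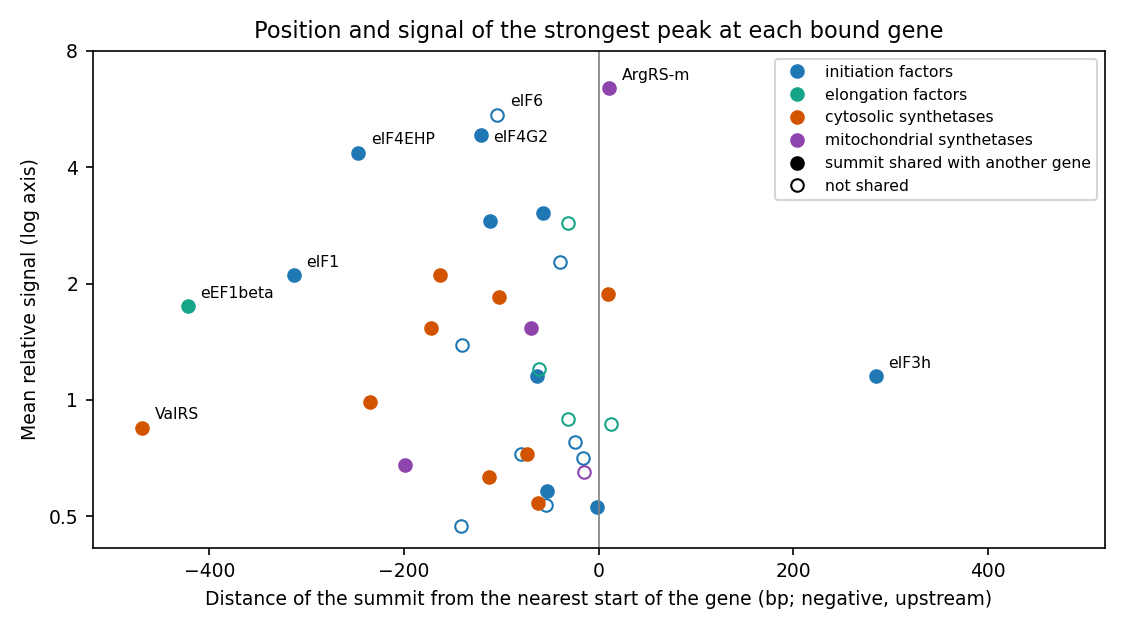
Distance in bp of the strongest summit from the nearest start of each bound gene, negative when upstream, against mean relative signal on a log axis. Colours give the class, and filled points are summits that also lie within 500 bp of a start of another protein-coding gene, which holds for 22 of 35 genes.

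Many of these peaks belong to more than 1 gene. For 22 of the 35 bound genes (62.9%, beside 51.8% of all bound genes) another protein-coding gene had a start within 500 bp of the summit. This held for 9 of 9 bound cytosolic synthetases, 3 of 4 mitochondrial synthetases, 9 of 17 initiation factors and 1 of 5 elongation factors. IleRS shared its summit with Hem, SerRS with CG17260, ThrRS with Patsas, GluProRS with AP-1sigma, a subunit of a clathrin adaptor, and AsnRS with DCTN6-p27. GlyRS shared with Plp and sstn, and HisRS with Bx and CG6470. eIF3h shared with senju and eIF3m with CG8323. In 27 of 35 cases (77.1%, beside 75.0%) the start of the translation gene was the nearest or as near as any other. The neighbour was nearer for eIF1, eIF2Bdelta, eIF4EHP, eIF3a (CG1074 at 7 bp), eEF1beta, AspRS (Nmda1 at 181 bp), ValRS (Kdm4B at 44 bp) and ProRS-m (CG42304 and Snup at 39 bp). With every summit given to its nearest gene alone, 28 of the 85 genes were bound, beside 20.5% of all genes.

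The number and arrangement of starts also differed between the genes. Of genes with 1 annotated start, 15 of 56 were bound (26.8%, beside 20.1% of all such genes), and of those with 2 or more, 20 of 29 (69.0%, beside 43.8%). Of genes with a start of another gene on the opposite strand within 500 bp upstream, 20 of 41 were bound (48.8%, beside 46.7%). Of genes without one, 15 of 44 were bound (34.1%, beside 18.7%). Such a divergent start was present at 14 of 18 cytosolic synthetases (77.8%) and 48.2% of the 85 genes, against 27.4% of all genes. Among mitochondrial synthetases, 13 of 15 had 1 annotated start, beside 11 of 18 cytosolic synthetases and 10246 of all 13945 genes. The part of start number and arrangement in the class shares was not tested.

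**Figure D5:**
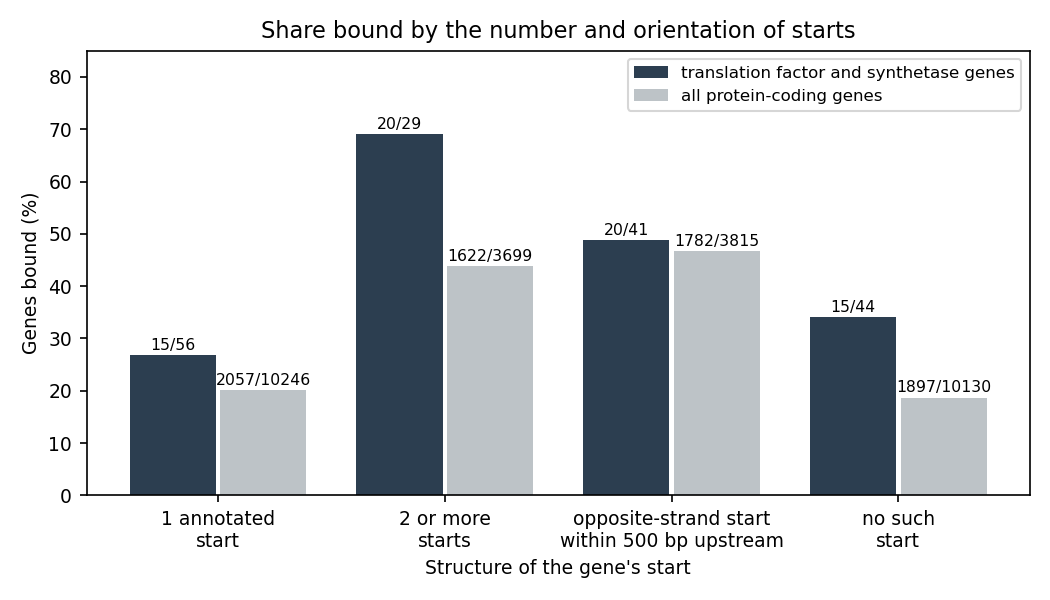
Percentage of genes bound, by the number of annotated starts and by whether an opposite-strand start lies within 500 bp upstream, for the 85 translation genes (dark) and all protein-coding genes (grey), with counts above the bars. The shares for genes with a divergent start are 48.8% and 46.7%, and those for genes without one are 34.1% and 18.7%.

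Motifs were counted within 100 bp of the 41 optimal summits at starts of these genes. The core palindrome of NRF-1 was found in 0 of 41 peaks, which allows a share of up to 7.32%, beside 1.31% of 3277 promoter peaks and 0.179% of equally long windows at the starts of all genes. With at most 1 mismatch, a search added after the data had been seen, it was again in 0 of 41, beside 9.92% of promoter peaks and 1.95% of starts. The GAGA element was also in 0 of 41, beside 9.73% and 3.69%. The DRE, shown above in capitals, was in 6 peaks (14.6%, beside 6.77% of promoter peaks and 7.84% of starts). These were peaks of eIF1, eIF2A, eIF2alpha, eIF3a, eIF6 and eEF1gamma, all of them factors. Most of the 41 peaks searched were of factors, with 19 of initiation and 8 of elongation factors. Cytosolic synthetases had 10 and mitochondrial ones 4, too few to set the classes apart, and a difference was not tested. The M1BP letters were in 4 peaks (9.76%, beside 5.40% and 5.68%), those of eIF2alpha, ValRS, AspRS-m and ProRS-m. The E-box was in 2 (4.88%, beside 2.56% and 2.88%), those of eEF2 and LeuRS-m. A match is a run of letters and not a measured site, and these motifs do not overlap in the stretches printed.

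The 50 unbound genes were read in the permissive lists, which mix peaks with background. Of these, 14 (28.0%) had a region of the pooled list within 500 bp of a start, beside 27.8% of all unbound genes, so the share was that of the background. The strongest belonged to eIF2beta, at a pooled signal of 141, just under the lowest optimal value of 142 and in rank 6830 of 30000. It was followed among initiation factors by eIF5 (119), the GTPase-activating partner of eIF2, and the eIF3 subunit eIF3b (97.1). The elongation factor eEF1alpha2 had 73.4. Of cytosolic synthetases MetRS had 81.4, AlaRS 76.9 and CysRS 47.4, and of mitochondrial ones CysRS-m had 115 and SerRS-m 100. No region of any list lay at the starts of 17 of the 50 genes (34.0%, beside 45.5% of all unbound genes).

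Replicate 2 differed from the others at the unbound genes. It had a region at a start of 27 of the 50 (54.0%, beside 38.4% of all unbound genes). Replicate 1 had one at 14 (28.0%, beside 26.1%) and replicate 3 at 11 (22.0%, beside 24.1%). In replicate 2 alone, 3 unbound genes were among the strongest regions. These were eIF3f1 at a relative signal of 1.17, with no region in the other lists, eIF2beta at 0.784, against 0.206 and 0.322 in replicates 1 and 3, and eIF4E1. A region in all 3 replicate lists was seen at 6 unbound genes (12%, beside 10.7%).

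Other genes of translation that fall outside the symbol rule were read from a separate list, of which 28 symbols were matched and 3 were not. Of the 28, 6 were bound (21.4%, beside the 26.4% of all genes). The release and recycling genes eRF1, eRF3 and pix (the fly ABCE1, which splits ribosomes) were all bound, at 0.890 ± 0.189, 1.03 ± 0.358 and 1.21 ± 0.239. They shared their summits with Rbbp5, SC35 and Srp68, in that order. All 3 had 2 or more annotated starts and a divergent start. Of all genes with 2 or more starts 43.8% were bound, and of those with a divergent start 46.7%. Of 9 mitochondrial translation factors only mEFTs, the exchange factor of mitochondrial elongation, was bound. It had 4.06, 4.78 and 2.93, with a mean of 3.92 ± 0.933, at a summit 34 bp upstream that was shared with Dhc36C. Neither of the genes for cytosolic phenylalanyl-tRNA synthetase, alpha-PheRS and beta-PheRS, was bound, nor was AIMP1, AIMP2 or AIMP3, the scaffold proteins of the synthetase complex. Of 11 regulators of initiation, Thor, the fly 4E-BP that binds eIF4E, had 0.767 ± 0.0751. S6k, the ribosomal protein S6 kinase, had 1.47 ± 0.240 at a summit shared with kri.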

How the data were processed

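Peak lists on dm6 from 3 biological replicates of 1 group were used, each with the authors' deposited signal (column 7 of the narrowPeak layout) and summit offset per region. Per the file records, they derive from the replicate alignments and a shared control alignment, and the optimal set was thresholded by irreproducible discovery rate. Which aligner and peak caller made them is not given in the sources used. The dm3 lists were not used.

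Genes and starts came from Ensembl release 115 (BDGP6) and sequence from the reference assembly of dm6, whose chromosome lengths contain all peaks. Coordinates count from 1. A replicate region was tied to an optimal peak by a summit within 100 bp. Differences between classes were tested by exact two-sided sign-flip permutation over replicates. Tables and tests used pandas 2.3.3, numpy 2.4.6 and scipy 1.17.1 under Python 3.11.15, figures used matplotlib 3.10.9, and the steps were tested on simulated peaks.

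The genes, lists and tests were chosen with earlier results of these data known. Replicate values are given for the 5 bound initiation factors and 4 bound genes of each other class with the highest mean relative signal (after these, genes measured in fewer than 3 replicates), every other bound gene with its mean, and of the unbound genes up to 3 per class with the strongest permissive region. Genes sharing a summit with these, and those just inside and outside 500 bp, are named too. Genes named beyond this, such as paralogs, eIF1, eIF3f1 and eIF4E1 in single replicates and the list of other translation genes, were chosen with their values known. Whether the replicates came from separate embryo collections is not given, so the p-values speak for the differences among these samples alone.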

Additional observations from a re-analysis of the deposited data

How the results depend on the processing

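With peaks above the median signal of the optimal set alone, 21 of the 85 genes were bound, with 10 initiation factors, 5 cytosolic and 2 mitochondrial synthetases, beside 15.8% of all genes. Leaving out each replicate in turn gave 23 to 28 bound genes, with 11 to 13 initiation factors, 4 to 5 elongation factors, 5 to 7 cytosolic and 3 to 4 mitochondrial synthetases. The lowest counts came without replicate 1 for all genes and cytosolic synthetases, and without replicate 1 or 2 for initiation factors. These settings ask more of a peak by construction. The difference between factors and synthetases in percentage bound was −0.233 to 8.01 over the same settings and turned sign without replicate 2. The cause was not tested. A region in all 3 replicate lists was found at 6 unbound genes in place of 14 in the pooled list. Within 250 bp of the summit the DRE was in 10 of 41 peaks, the GAGA element in 1 and the E-box in 5, and within 50 bp the E-box was in 1. A wider window holds more matches by its length alone. The shares of promoter peaks and starts at these widths are not given, so these counts show no excess. Windows of 250 and 1000 bp gave 33 and 37 bound genes, beside 21.8% and 30% of all genes, and the outermost start alone gave 33, beside 23.7%. The median relative signal of each class moved by less than its SD over replicates when peaks were tied within 50 or 200 bp, when signal was rescaled or ranked, and without each replicate. Some single genes moved beyond theirs. Of the 35 bound genes, 8 moved beyond their own SD with the 50 bp tie, among them eIF4G2, which fell from 4.83 to 4.38. Over all 35 genes the values with this tie were 0.630 to 1.08 times the main ones, and 33 were lower. With the 200 bp tie 2 genes moved beyond their SD, and 1 each when signal was rescaled or ranked. Class differences were taken within each replicate, and a replicate block between groups could not be fitted because there is 1 group. Depth is unknown, and genes are not replicates.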

Other observations

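Optimal peaks away from the starts, over 500 bp from any start of the gene, lay within the bodies of 3 of the bound genes. The share of all genes with such peaks was not counted, and gene length was not taken into account, so this number has no background beside it. eIF5B held 4 intronic summits, the strongest at 1.34 ± 0.0908 (relative signal, SD, n = 3), close to the 1.39 ± 0.201 at its start. eIF4EHP held 4, the strongest at 1.94 ± 0.564 at position 24106384 of 3R and 2576 bp from the start. Another of these 4, in 5′ untranslated sequence, lay at a start of Syx1A. HisRS held 1, in a coding exon, at 0.694 ± 0.134.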
